A study of Bos taurus with 8 samples.

Results

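The microRNAs (miRNAs) bta-miR-191, bta-miR-425-5p and bta-miR-425-3p come from 2 hairpins that lie next to each other in the bovine genome. They were chosen by name, as the rows of the deposited count tables that carry these names, and all 3 were listed, out of 565 miRNA entries. Of the 565 entries, 377 reached 10 reads in at least 1 library, the 3 miRNAs among them. The samples were rumen fluid, from which small RNA was sequenced, of 4 non-lactating, ruminally cannulated Holstein cows, as 1 library per cow and diet. The forage libraries (n = 4) came from the seventh day on a diet with 0% concentrate, and the high-grain (HG) libraries (n = 4) from the first day on which the diet held 65% concentrate, after a stepwise change. The same cows were sampled on both diets in the same order, so diet and time cannot be told apart. Equal replicate numbers on the 2 diets were read as the same cow. The question addressed was how steady the 3 miRNAs were over the libraries and between the diets.

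A miRNA hairpin is cut into a short duplex whose arms are called 5p and 3p, of which usually a single one is loaded into Argonaute while its partner is degraded. The loaded arm pairs through its seed with messenger RNAs and lowers their translation or stability. In mammals miR-191 and miR-425 are encoded close together and share a primary transcript, which in humans is an intron of DALRD3. Both are abundant in blood cells, and miR-191 and miR-425-5p are among the miRNAs most often taken as reference genes when circulating miRNAs are measured, so their own variation is passed on to every miRNA that is scaled to them.

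Bta-miR-191, the loaded arm of its hairpin, lies on chromosome 22 of the assembly UMD3.1 from 51543484 to 51543506, on the plus strand (chr22:51543484-51543506). Bta-miR-425-5p lies 459 bases downstream, from 51543966 to 51543987, and bta-miR-425-3p follows after a gap of 18 bases, from 51544006 to 51544027, both on the plus strand. The stretch from the first base of miR-191 to the last base of miR-425-3p is 544 bases long. By the RefSeq gene table (ARS-UCD2.0), consulted only for gene order, MIR191 and MIR425 stand between NDUFAF3 and DALRD3. Neither overlaps the listed span of DALRD3, so in this annotation the cluster is a neighbour of that gene and not inside it. A further miRNA gene, MIR191B, overlaps MIR191 there, and no entry of that name was listed in the count tables. The human entry hsa-miR-191-5p held the same reads as bta-miR-191 in all 8 libraries. When reads were divided among the entries they map to, each of the 3 miRNAs kept exactly 50% of its reads in 8 of 8 libraries.

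The libraries held 300116 to 522804 miRNA reads. These were 6.67% to 29.3% of all reads of the library on the forage diet and 8.59% to 27.8% on the HG diet. HG replicate 2 stood apart from the other 7 libraries. Libraries were compared pair by pair on 78 bovine entries whose reads mapped to no second entry, by chi-square divided by degrees of freedom. The 7 pairs with HG replicate 2 gave 23.7 to 28.7, and the other 21 pairs gave 0.993 to 2.40. In 7 of the 21 the chi-square p was over 0.05. By the study's design the libraries of each pair came from different cows or diets, so every library was counted as 1 sample. They also differed in their total reads. Neither this nor the values above shows how far the libraries were separate material. Summed shares of cell type markers in HG replicate 2 also lay outside the range of the other libraries. The erythrocyte markers (3 of 3 detected) took 14.98% of its miRNA reads, against 19.8% to 20.6% elsewhere. The leukocyte markers (6 of 6) took 1.87%, against 2.26% to 2.33%. The epithelial markers (7 of 8, without bta-miR-203) took 2.84%, against 2.11% to 2.203%, and the markers of stroma and smooth muscle (6 of 6) took 9.03%, against 6.52% to 7.02%.

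Bta-miR-191 was the most abundant of the 3 miRNAs, with 31352 reads over the 8 libraries and rank 22 among the 268 bovine entries with at least 10 reads in a library. On the forage diet, replicates 1 to 4 held 4974, 5237, 4475 and 3281 reads, which were 1.01%, 1.002%, 0.981% and 0.989% of the miRNA reads. On the HG diet, replicates 1 to 4 held 3037, 2558, 3963 and 3827 reads, or 1.01%, 0.761%, 1.01% and 0.986%. Thus 7 of the 8 libraries lay between 0.981% and 1.01%, and HG replicate 2 was the single low one. The 95% Wilson interval of HG replicate 2 was 0.732% to 0.791%, and the lowest bound of any other library was 0.953%. PCR copies are not separate molecules, so these intervals hold counting error and nothing else. The mean share over 4 libraries was 0.995% ± 0.0117 (SD) under forage and 0.943% ± 0.122 (SD) under HG, or 1.004% ± 0.0156 (SD, n = 3) under HG without replicate 2. The source of miRNA in the fluid was not measured, and the study proposes salivary exosomes or apoptotic bodies from the rumen epithelium as possible ones. Less material from a source and less of the miRNA in that material cannot be told apart. The rank of bta-miR-191 among the bovine entries was 20 to 22 in the 7 other libraries and 30 in HG replicate 2.

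Bta-miR-425-5p, the abundant arm of its hairpin, had 12341 reads in all and ranked 44 among the bovine entries. Its reads were 1799, 1992, 1756 and 1302 in forage replicates 1 to 4, with shares of 0.364%, 0.381%, 0.385% and 0.392% of the miRNA reads. In HG replicates 1 to 4 they were 1098, 1299, 1536 and 1559, with shares of 0.366%, 0.386%, 0.393% and 0.402%. HG replicate 2 lay inside the range of the others here, and the diets overlapped. Its mean share was 0.381% ± 0.0120 under forage and 0.387% ± 0.0153 under HG (SD, n = 4 each). On both diets the share was lowest in number 1 and highest in number 4, with the same order of the numbers between them. The Wilson intervals of numbers 1 and 4 nevertheless overlapped on each diet (0.348% to 0.381% and 0.372% to 0.414% on the forage diet, and 0.345% to 0.388% and 0.382% to 0.422% on the HG diet), and on the TMM scale HG replicate 2 was the highest HG library instead.

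Bta-miR-425-3p, the arm of miR-425 that is mostly degraded, was near the limit of the depth, with 188 reads in all and rank 190. Forage replicates 1 to 4 held 28, 22, 29 and 19 reads, and HG replicates 1 to 4 held 28, 18, 20 and 24 reads. These were 0.00567%, 0.00421%, 0.00636% and 0.00573% of miRNA reads under forage and 0.00933%, 0.00535%, 0.00512% and 0.00618% under HG. HG replicate 1 was the highest and forage replicate 2 the lowest, while the other 6 libraries lay between 0.00512% and 0.00636%. Even these extremes were measured with wide error, since the Wilson interval was 0.00646% to 0.0135% for HG replicate 1 and 0.00278% to 0.00637% for forage replicate 2.

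**Figure D1:**
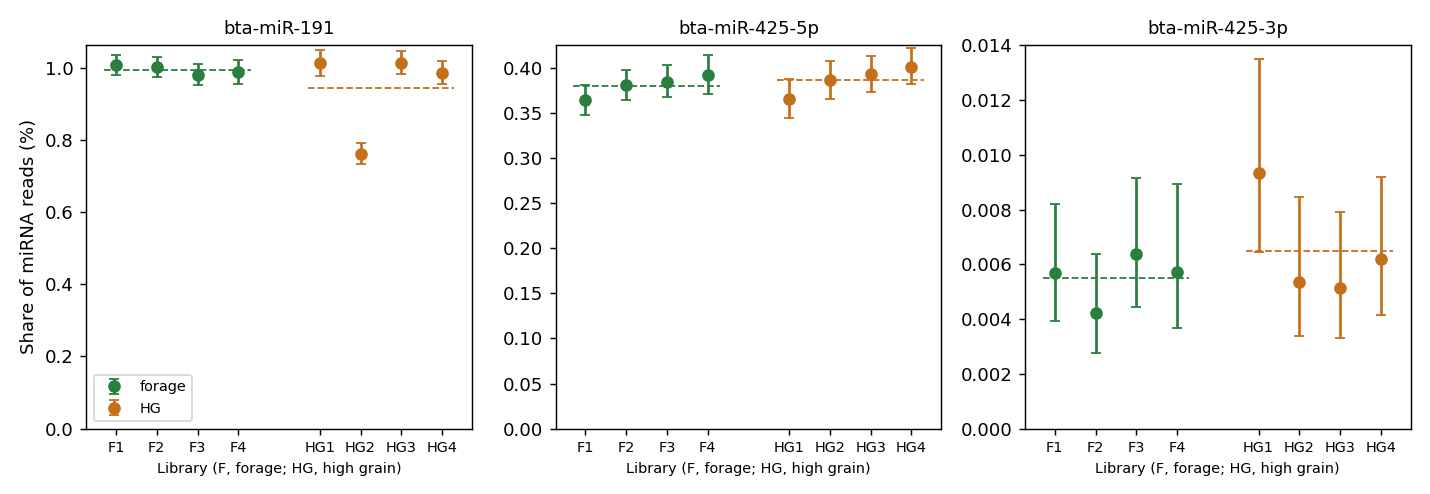
Share of the miRNA reads (%, linear axis from 0) taken by each of the 3 miRNAs in the forage libraries (F1 to F4) and the high-grain libraries (HG1 to HG4). Points are libraries, bars their 95% Wilson intervals (counting error only) and dashed lines the mean of each diet. Bta-miR-191 lies between 0.981% and 1.01% in all libraries but HG2, at 0.761%, whereas bta-miR-425-5p stays between 0.364% and 0.402%.

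The reads rested on few sequence variants of each miRNA. Bta-miR-191 was read as 44 to 80 distinct sequences per library, with 58.1 to 65.5 reads for each. Bta-miR-425-5p was read as 22 to 38 distinct sequences, with 40.4 to 56.5 reads for each. The 2 lowest of these last values were HG replicates 3 and 4, at 40.4 and 42.1. Bta-miR-425-3p was read as 6 to 10 distinct sequences, with 2.40 to 4.67 reads for each. HG replicate 2, low in reads of bta-miR-191, also had the fewest distinct sequences of it (44), with 58.1 reads for each.

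For the comparison of the diets, reads were scaled with edgeR's TMM factors and given as CPM (counts per 1000000 reads). Forage replicates 1 to 4 had 6473, 6549, 6383 and 6408 CPM of bta-miR-191, and HG replicates 1 to 4 had 6551, 5693, 6542 and 6425 CPM. The means were 6453 ± 74.1 CPM and 6303 ± 411 CPM (SD, n = 4 each). The highest library had 1.15 times the level of the lowest, and without HG replicate 2 this span was 1.02 times. Bta-miR-425-5p had 2470 ± 88.6 CPM on the forage diet and 2603 ± 218 CPM on the HG diet (SD, n = 4 each), with a span of 1.23 times over all libraries and 1.11 times without HG replicate 2. Bta-miR-425-3p had 35.6 ± 5.82 CPM and 43.4 ± 11.8 CPM (SD, n = 4 each), with a span of 2.195 times. In 77 of the 377 entries (20.4%) the highest library was at most 25% above the lowest, and without HG replicate 2 in 143 of 371 (38.5%). Bta-miR-191 and bta-miR-425-5p met this on both counts and bta-miR-425-3p on neither. The SDs of bta-miR-191 and bta-miR-425-5p on the HG diet were widened by replicate 2, without which they were 70.1 CPM and 127 CPM (n = 3).

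None of the 3 miRNAs was called different between the diets by edgeR's quasi-likelihood test with cow and diet in the model and Benjamini-Hochberg adjustment over the 377 entries. Over all entries the same test called 0 of 377 (0%) at an adjusted p under 0.05, and 9 (2.39%) had an unadjusted p under 0.05. DESeq2 also called 0, with 3 at an unadjusted p under 0.05. For bta-miR-191 the log2 fold change of HG over forage was −0.036 (standard error 0.055, 95% interval −0.17 to 0.10, edgeR adjusted p = 0.841). It was higher on the HG diet in 3 of 4 cows on the TMM scale, and in 2 of 4 as a share of miRNA reads or with DESeq2's size factors, since the difference in cow 4 was close to 0. For bta-miR-425-5p it was 0.073 (standard error 0.057, 95% interval −0.070 to 0.22, edgeR adjusted p = 0.788) and was higher on the HG diet in 4 of 4 cows under these 3 scalings, and in 2 of 4 relative to all reads. In 58 of the 377 entries (15.4%) all 4 cows moved the same way on the TMM scale. For bta-miR-425-3p it was 0.27 (standard error 0.26, 95% interval −0.37 to 0.91, edgeR adjusted p = 0.798) and the level was higher on the HG diet in 3 of 4 cows under the same 3 scalings, and in 2 of 4 relative to all reads. The levels of the diets overlapped for each of the 3 miRNAs, whereas they did not overlap for 17 of the 377 entries (4.51%).

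The intervals differed in what they leave possible. With all 8 libraries, the interval ended within 0.22 of 0 on the log2 scale for bta-miR-191 and bta-miR-425-5p. For bta-miR-425-3p a change of 0.91 was still inside it. The size of the change, without regard to sign, was smaller than that of bta-miR-191 in 62 of the 377 entries, smaller than that of bta-miR-425-5p in 116 and smaller than that of bta-miR-425-3p in 273. The median over all entries was 0.15. The within-cow changes show where the estimates came from. For bta-miR-191 they were 0.017, −0.20, 0.035 and 0.0038 for cows 1 to 4, and for bta-miR-425-5p they were 0.017, 0.21, 0.018 and 0.042. Cow 2, to which HG replicate 2 belongs, gave the largest change for both, with opposite signs. Without HG replicate 2 the estimates were 0.013 for bta-miR-191 and 0.019 for bta-miR-425-5p, with 95% intervals of −0.032 to 0.057 and −0.048 to 0.085. Leaving out forage replicate 2 narrowed them as well, to −0.026 to 0.063 and −0.041 to 0.090. With cow in the model, this leaves HG replicate 2 without a partner and outside the diet estimate, so it is nearly the same fit. The intervals were wider without some other libraries, at −0.28 to 0.12 for bta-miR-191 without HG replicate 3 and at −0.13 to 0.30 for bta-miR-425-5p without forage replicate 3. For bta-miR-425-3p the within-cow changes were 0.71, 0.53, −0.32 and 0.12. Its estimate was 0.10 without HG replicate 1 and 0.47 without forage replicate 3.

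**Figure D2:**
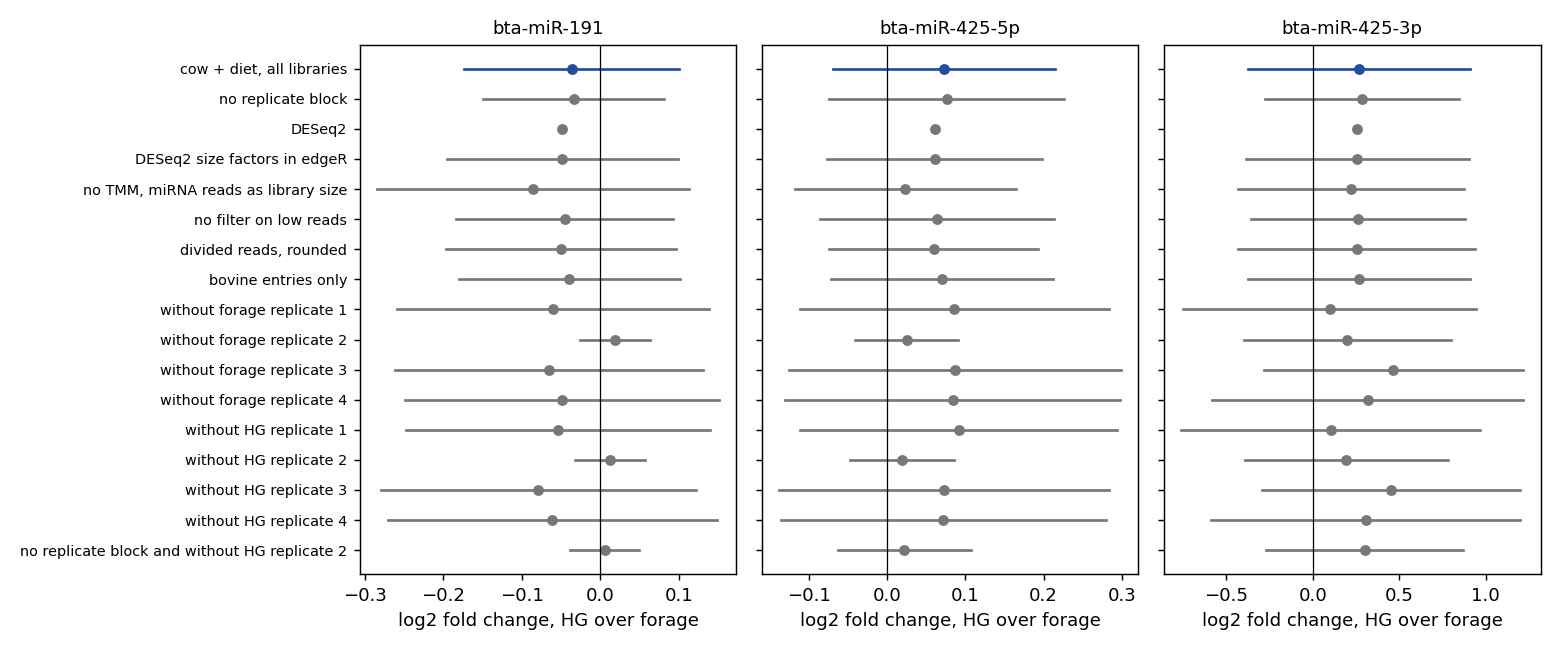
Log2 fold change of HG over forage for each miRNA (horizontal axes, which differ in range) under the model with cow and diet (top row, blue) and under each alternative (grey). Points are estimates and lines 95% intervals, which are not drawn for DESeq2. Every interval drawn includes 0, and bta-miR-191 moves from −0.036 to 0.013 when HG replicate 2 is left out.

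Both abundant miRNAs of the cluster were compared with each other inside each library, which needs no scaling between libraries. They have similar lengths, 23 and 22 bases, but different miRNAs are ligated and amplified with different efficiency, so the ratio is one of reads and not of molecules. Forage replicates 1 to 4 had 2.76, 2.63, 2.55 and 2.52 reads of bta-miR-191 per read of bta-miR-425-5p. HG replicates 1 to 4 had 2.77, 1.97, 2.58 and 2.45. Apart from HG replicate 2, the ranges of the diets overlapped, 2.52 to 2.76 on the forage diet and 2.45 to 2.77 on the HG diet. The 95% Wilson interval was 1.84 to 2.11 in HG replicate 2, below the lowest bound of any other library (2.31, in HG replicate 4). The mean ratio was 2.62 ± 0.110 under forage and 2.44 ± 0.340 under HG (SD, n = 4 each), or 2.60 ± 0.157 (SD, n = 3) without HG replicate 2. The mean change within cows was −0.11 on the log2 scale, with a lower ratio in 2 of 4 cows, and it was −0.0065 without cow 2. An exact two-sided sign-flip permutation test over the 4 cows gave p = 0.50 (Benjamini-Hochberg adjusted p = 0.50 over 2 ratios), where 0.13 is the smallest p that 4 cows allow.

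The arms of miR-425 were compared in the same way. The 3p arm made up 1.53%, 1.09%, 1.62% and 1.44% of the miR-425 reads in forage replicates 1 to 4, and 2.49%, 1.37%, 1.29% and 1.52% in HG replicates 1 to 4. HG replicate 1 was the highest, and its Wilson interval of 1.73% to 3.57% overlapped that of every other library except forage replicate 2 (0.722% to 1.65%). HG replicate 2, which stood apart for bta-miR-191, lay inside the range of the forage libraries. The mean was 1.42% ± 0.233 under forage and 1.66% ± 0.557 under HG (SD, n = 4 each). The log2 ratio of 5p to 3p differed by −0.20 on average, with a lower value under HG for 3 of 4 cows (exact two-sided sign-flip permutation test, p = 0.375, Benjamini-Hochberg adjusted p = 0.50). It was −0.024 without cow 1 and −0.37 without cow 3.

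**Figure D3:**
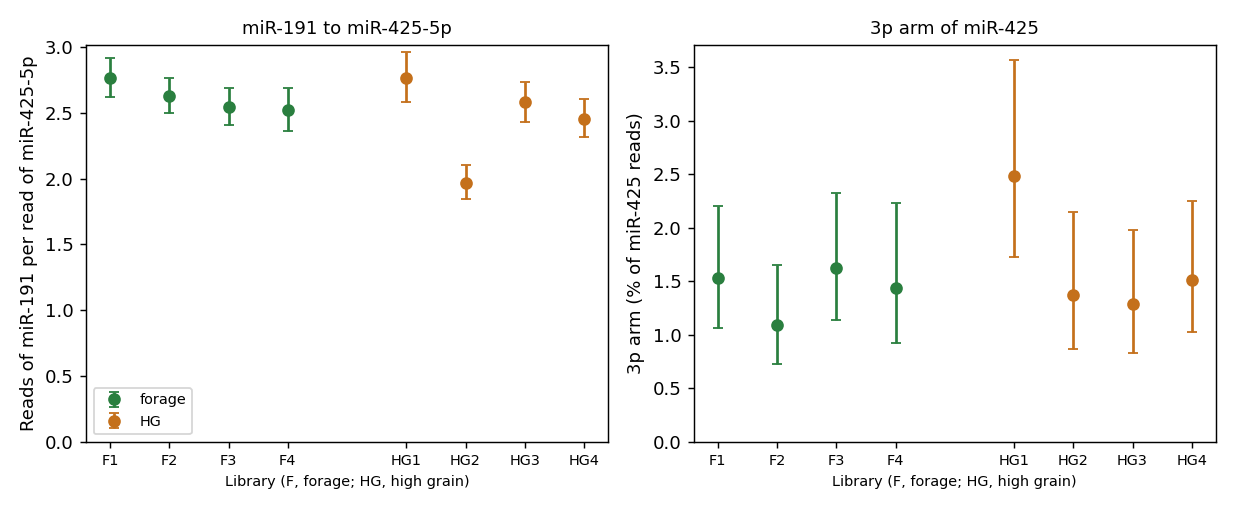
Left, reads of bta-miR-191 per read of bta-miR-425-5p, and right, the 3p arm as a percentage of all miR-425 reads, in each forage (F) and high-grain (HG) library, on linear axes from 0. Points are libraries and bars 95% Wilson intervals. The left panel shows HG2 at 1.97 and the other libraries between 2.45 and 2.77, while on the right the intervals are wide and only HG1 exceeds 2%.

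Steadiness was described by the SD of log2 CPM over libraries, with a pseudocount of 1 CPM. Over the 8 libraries the SD of bta-miR-191 was 0.0674, and 39 of the 377 entries (10.3%) had a smaller one. The SD of bta-miR-425-5p was 0.0939, with 66 entries (17.5%) below it. The SD of bta-miR-425-3p was 0.316, with 228 entries (60.5%) below it. Of the 377 entries, 94 repeated the reads of another in every library, such as a human entry beside the bovine one. With such sets counted once, 26, 45 and 168 of 283 were steadier than the 3 miRNAs in the order above. All of the 39 and 66 entries steadier than bta-miR-191 and bta-miR-425-5p were among the 186 entries with a mean of at least 100 reads per library. The median SD over all 377 entries was 0.251, and it was 0.138 over these 186. Low counts alone raise this measure, so the variance was also set against that of counting error, as chi-square over its degrees of freedom. This was 6.02 for bta-miR-191, 5.89 for bta-miR-425-5p and 1.30 for bta-miR-425-3p, against a median of 2.55 over all entries and 5.58 over those with at least 100 reads. Over the 8 libraries the order of the abundant pair depended on the scale. As RPM of miRNA reads the SD was 0.140 for bta-miR-191 and 0.0497 for bta-miR-425-5p. This turn rested on HG replicate 2. Without it, the SD of the RPM of miRNA reads was 1.32% of the mean for bta-miR-191 and 3.69% for bta-miR-425-5p. Bta-miR-425-3p varied most of the 3 on the log2 TMM scale and least relative to what its few reads would give.

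Leaving out HG replicate 2 changed these figures for the abundant miRNAs. The SD of bta-miR-191 became 0.0159, and 5 of 371 entries were steadier, or 3 of 278 with repeated reads counted once, against a median of 0.158 over all entries. Its variance was 0.488 of that of counting error, so over 7 libraries from 4 cows and both diets no spread beyond counting error was detectable. The SD of bta-miR-425-5p became 0.0547, with 84 of 371 entries, or 60 of 278, steadier. All 84, and the 5 steadier than bta-miR-191, were among the 183 entries with a mean of at least 100 reads. The median SD of these 183 was 0.0589, close to the SD of bta-miR-425-5p. The variance of bta-miR-425-5p was 2.16 times that of counting error, above the median of 1.48 over the same 183 entries. The SD of bta-miR-425-3p was 0.340, and its variance was 1.52 times that of counting error. With HG replicate 1 left out instead, the SD of bta-miR-425-3p was 0.201. Of the 2 abundant miRNAs, bta-miR-191 was the one nearer to counting error in the 7 libraries and also the one whose share of miRNA reads departed in the eighth.

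**Figure D4:**
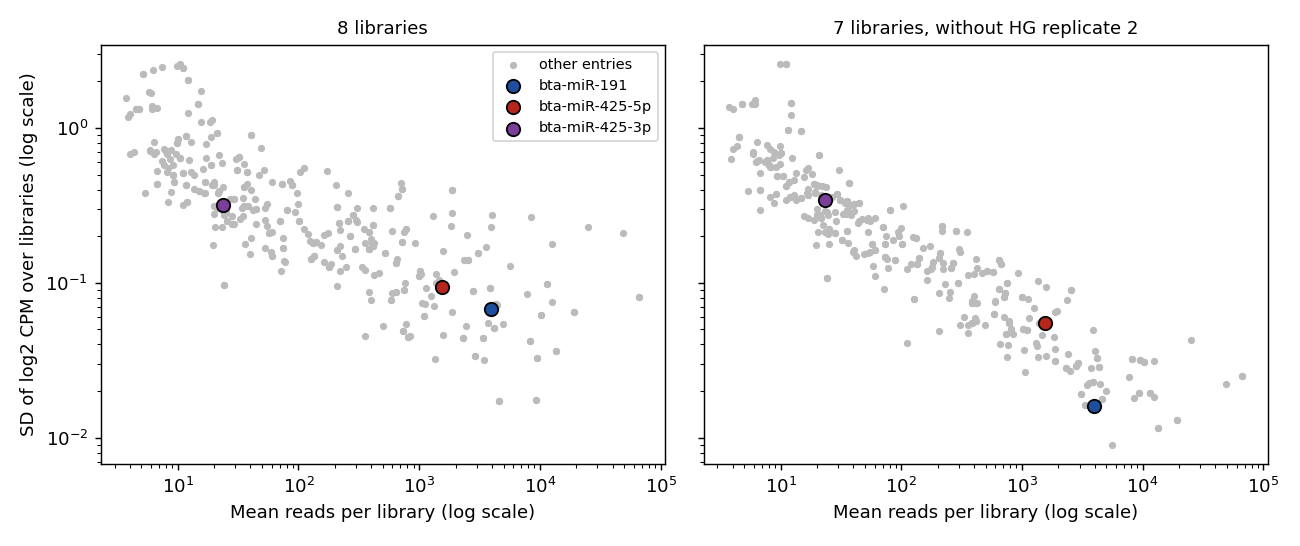
SD of log2 CPM over libraries against mean reads per library over all 8 libraries (both axes logarithmic), for the 377 entries with at least 10 reads in a library, over all 8 libraries (left) and without HG replicate 2 (right, for entries still detected). Grey points are other entries and coloured points the 3 miRNAs. Bta-miR-191 goes from 0.0674 to 0.0159, while bta-miR-425-3p stays among entries of like abundance at 0.316 and 0.340.

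The spread depended on the scale. Relative to all reads of the library, in place of the miRNA reads, bta-miR-191 ranged from 656 to 2950 RPM (reads per 1000000 reads of the library), a span of 4.49 times. Bta-miR-425-5p ranged from 262 to 1091 RPM (4.17 times) and bta-miR-425-3p from 3.82 to 16.6 RPM (4.35 times). On this scale the SD of log2 values was 0.876, 0.797 and 0.685. The highest RPM of bta-miR-191 was in forage replicate 1 (2950) and HG replicate 3 (2816), which were also the libraries with the largest share of miRNA reads among all reads, 29.3% and 27.8%. The diets overlapped, with 1739 ± 938 RPM under forage and 1325 ± 1003 RPM under HG (SD, n = 4 each). The part of the miRNA share in this spread was not tested.

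In HG replicate 2, bta-miR-191 and bta-miR-425-5p parted, and the size of both differences and the direction of that of bta-miR-425-5p depended on the scale. On the TMM scale HG replicate 2 differed from the mean of the other 7 libraries by −12.1% for bta-miR-191 and by 16.3% for bta-miR-425-5p. With DESeq2's size factors the differences were −13.5% and 14.5%. As shares of miRNA reads they were −23.8% and 0.818%, and relative to all reads −60.4% and −47.1%. Bta-miR-191 was thus lower on all 4 scales, and bta-miR-425-5p was higher on 3 of them and lower relative to all reads. For bta-miR-425-3p the difference was 1.55% on the TMM scale and −12.0% as a share of miRNA reads, on a count of 18 reads. The difference of bta-miR-191 on the log2 TMM scale, −0.19, was exceeded in size by 272 of the 377 entries, and that of bta-miR-425-5p, 0.22, by 256.

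The marker lists moved with HG replicate 2 in the following way, on the same log2 TMM scale. All 3 erythrocyte miRNAs were lower there, with differences of −0.22 (bta-miR-451), −0.28 (bta-miR-486) and −0.17 (bta-miR-144). Of the 6 leukocyte miRNAs, 4 were lower, with −0.29 (bta-miR-223), −0.20 (bta-miR-142-5p), −0.10 (bta-miR-150) and −0.35 (bta-miR-155). The other 2, bta-miR-142-3p at 0.47 and bta-miR-146a at 0.77, were higher. Of the 7 epithelial miRNAs 1 was lower (median difference 0.49), and of the 6 miRNAs of stroma and smooth muscle none was lower (median 0.88). The range of the erythrocyte miRNAs held the value of bta-miR-191, −0.19, and not that of bta-miR-425-5p, 0.22, and the range of the stromal miRNAs (0.10 to 1.53) held that of bta-miR-425-5p alone. The ranges of the leukocyte (−0.35 to 0.77) and epithelial miRNAs (−0.45 to 0.96) held both values. The median over all 377 entries was 0.0037. The part of these cell types in the values of the cluster was not tested. In the diet test, 0 of the 3 erythrocyte, 6 leukocyte, 7 epithelial and 6 stromal miRNAs were called.

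**Figure D5:**
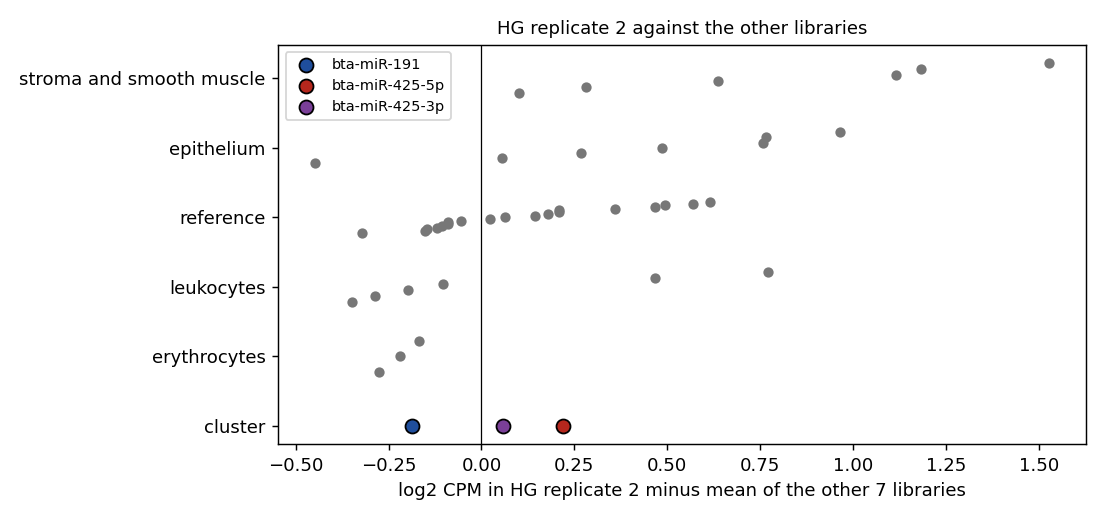
Difference between log2 CPM in HG replicate 2 and the mean of the other 7 libraries (horizontal axis) for the 3 miRNAs of the cluster and, as grey points, the other members of each marker or reference list. The vertical spread within a list only separates points. Bta-miR-191 lies at −0.19 and bta-miR-425-5p at 0.22, and the leukocyte, epithelial and reference lists each have members on both sides of 0.

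The most similar entries were sought by the SD of the log2 ratio of reads over the 8 libraries, a measure that is 0 when 2 miRNAs keep a constant ratio. Candidates were the other bovine entries with a mean of at least 100 reads that did not hold the same reads. For bta-miR-191 the 3 nearest of 129 were bta-miR-30b-5p (0.0269), bta-miR-16a (0.0273) and bta-miR-93 (0.0291). Its cluster partner bta-miR-425-5p stood at place 69, with 0.155, and the median was 0.147. For bta-miR-425-5p the nearest were bta-let-7a-5p (0.0487), bta-let-7b (0.0493) and bta-miR-22-3p (0.0501), and bta-miR-191 stood at place 67. For bta-miR-425-3p the nearest were bta-miR-335 (0.248), bta-miR-29b (0.269) and bta-miR-29c (0.272) of 130, with bta-miR-425-5p at place 72 (0.346). The miRNAs of the cluster were therefore not nearest to one another. HG replicate 2 weighed on these places: without it, the nearest to bta-miR-191 were bta-miR-103 (0.0089), bta-miR-486 (0.0133) and bta-miR-186 (0.0176), and bta-miR-425-5p stood at place 64 (0.0656). Without it the nearest to bta-miR-425-5p were bta-let-7g (0.0348), bta-miR-22-3p (0.0352) and bta-miR-125a (0.0386), and bta-miR-191 stood at place 42. For bta-miR-425-3p, bta-miR-425-5p then stood at place 104 (0.370). Of the 3 nearest to bta-miR-425-3p, 0 were kept without forage replicate 2 and 1 without HG replicate 1.

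Among 21 miRNAs in general use as normalizers, all of them detected, bta-miR-191 held place 10 and bta-miR-425-5p place 14 by SD of log2 CPM. The steadiest were bta-miR-103 (0.0172) and bta-miR-186 (0.0315), and the least steady were bta-miR-320a (0.223) and bta-miR-99b (0.213). The median SD of the list was 0.0754, beside 0.251 over all entries and 0.138 over entries with at least 100 reads. Without HG replicate 2, bta-miR-191 held place 3 of 21, bta-miR-425-5p remained at place 14, and the median of the list was 0.0323. The steadiest were then bta-miR-30e-5p (0.0089) and bta-miR-26a (0.0130) and the least steady bta-miR-361 (0.116) and bta-miR-181a (0.0857), while bta-miR-320a stood at place 15 (0.0549). A further measure used reads alone, as the mean SD of the log2 ratio of a miRNA to each of the other 20. It was 0.129 for bta-miR-191 (place 14) and 0.121 for bta-miR-425-5p (place 11), over a range of 0.0989 to 0.206 in the list. Without HG replicate 2 it was 0.0475 for bta-miR-191 (place 3) and 0.0759 for bta-miR-425-5p (place 16). The order of the 2 cluster miRNAs on this measure was thus decided by HG replicate 2. In the diet test 0 of the 21 were called, and 0 had an unadjusted p under 0.05.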

How the data were processed

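Per the labels and the study's methods, the authors demultiplexed the reads with bcl2fastq 2.20, trimmed adapters with Skewer and mapped reads with sRNAbench and Bowtie, using UMD3.1 and miRBase (cattle and human). The authors deposited, for each of 8 libraries, read counts per miRNA entry (reads that map to several entries in full at each), expected counts (such reads divided among entries), counts of distinct sequences, RPM of all reads and a score, RPM of miRNA reads. The totals of reads and of miRNA reads were recovered from the last 2. The deposited table of normalized values was not used here.

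Entries with at least 10 reads in a library were kept. The diet was tested with edgeR 4.0.16 (TMM, glmQLFit and glmQLFTest, cow and diet) in R 4.3.3, checked on simulated data. DESeq2 1.42.0 was an alternative, and expected counts were rounded to whole numbers for the test. Python 3.11.15 with scipy 1.17.1 gave Wilson intervals and exact permutation tests. Log2 ratios of reads used a pseudocount of 0.5 reads.

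The pairing rests on the design, in which the same 4 cows were sampled on both diets, and on the numbers in the labels. Deviations of same-numbered libraries from their diet's mean correlated across entries at 0.0045, −0.06, 0.06 and 0.0061.

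The rule for naming miRNAs took the 3 members, entries sharing their reads, the 3 entries most like each, the 2 steadiest and 2 least steady of the normalizer list, and the blood cell markers. Members and lists were chosen with earlier results of these data known. The nearest entries and the normalizers at either end without HG replicate 2 were named after their values were seen. Labels do not say whether the samples were split, so p-values measure the spread between these libraries. Alternatives covered scaling, filter, tool, pseudocount, divided reads, bovine entries alone, the block and each library left out. A fit without the block and without HG replicate 2, and a count of steadier entries with repeated reads counted once, were added after the data were seen.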

Additional observations from a re-analysis of the deposited data

Results flagged for a closer look

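HG replicate 2 lay far from the other HG libraries for bta-miR-191, on both scales on which it was checked. Its share of miRNA reads was 0.761%, with a gap to the nearest HG library of 0.889 of the whole range, above Dixon's 95% critical value for 4 samples. Its TMM-scaled level was 5693 CPM, with a gap of 0.854 of the range. No other of the 16 sets of 4 libraries checked, which included both other miRNAs and the ratios on each diet, had a gap above that value. Chance gives such a gap in about 1 in 20 sets.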

How the results depend on the processing

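No alternative called any of the 3 miRNAs different between the diets (adjusted p 0.718 to 0.999 over all of them). Without the replicate block the log2 fold changes were −0.034, 0.076 and 0.28 for bta-miR-191, bta-miR-425-5p and bta-miR-425-3p, and the call of none of them changed. Leaving out 1 library gave −0.079 to 0.018, 0.019 to 0.091 and 0.097 to 0.47. The change of bta-miR-191 turned positive without forage replicate 2 (0.018), without HG replicate 2 (0.013) and without both the block and HG replicate 2 (0.0053), and that of the other pair kept its sign in all 16 alternatives. With cow in the model, leaving out either library of cow 2 takes both out of the diet estimate, so those fits are nearly the same. The number of entries called was 0 in 14 of 16 alternatives and 2 without forage replicate 2 or HG replicate 2 (0 to 2 when 1 library was left out), namely bta-miR-2285ak-5p and bta-miR-2285bh, named after their values were seen. Without HG replicate 2 and without the replicate block it was 0. The SD of log2 values was 0.140 for bta-miR-191 and 0.0497 for bta-miR-425-5p as RPM of miRNA reads, so their order turned. Without HG replicate 2 it did not turn, as the SD of this RPM was 1.32% and 3.69% of the mean. As RPM of all reads the SD of log2 values was 0.876, 0.797 and 0.685 for the 3 miRNAs. Leaving out 1 library gave SDs of 0.0159 to 0.0835, 0.0547 to 0.102 and 0.201 to 0.340, with the lowest value without HG replicate 2 for the first pair and without HG replicate 1 for bta-miR-425-3p. Of the 3 entries most like each miRNA, 0 to 3, 1 to 3 and 0 to 3 were kept when 1 library was left out. Changes of the ratios within cows kept their sign in 11 of 11 alternatives each, but these were not separate checks. Leaving out either library of a cow removed the whole cow and gave the same value. Without the block the mean change is the same by construction, and dividing reads lowered all 3 miRNAs alike. The changes ranged from −0.15 to −0.0065 for bta-miR-191 to bta-miR-425-5p, the last without the libraries of cow 2. For the arms of miR-425 they ranged from −0.37 to −0.024, the last without those of cow 1. The causes were not tested. At 18 to 29 reads per library, bta-miR-425-3p is limited by depth.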
